A study of Homo sapiens with 2 samples.

Results

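The genes described here are long intergenic non-coding RNAs that carry a LINC number as their symbol. They were selected on their read counts: rows of the gene table typed as lncRNA, with a symbol made of LINC and digits only, were kept where the reads of siNC and siLINP1 summed to at least 30. This left 173 genes of 1194 LINC-named lncRNA rows and of 44591 genes in all. Of the other LINC-named lncRNA rows, 643 had 0 reads in both libraries and 378 had between 1 and 29. Just inside the minimum were LINC01001, with 16 reads in siNC and 14 in siLINP1, and LINC02158, with 2 and 28. Just outside it were LINC00589, with 18 and 11 reads, and LINC01012, with 12 and 16.

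A long non-coding RNA (lncRNA) is a transcript that is spliced and processed much like an mRNA but for which no long protein was annotated. The LINC symbol is a placeholder that the gene nomenclature gives to such a transcript when it lies between coding genes and has no known function, and a gene is renamed when a role or a small protein is described. The transcripts are as a rule less abundant and more restricted to particular cell types than mRNAs. Their roles as described so far are varied: some act on the transcription of the gene next to them, some bind proteins in the nucleus or cytoplasm, and some turn out to be translated.

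Total RNA was sequenced from HSC-1 cells, a line from a cutaneous squamous cell carcinoma (cSCC), after transfection with a control siRNA (siNC) or with siRNA against the lncRNA LINP1 (siLINP1). Transfection was at about 70% confluency, in medium without serum for 6 h, followed by 24 h in complete medium per the labels. The transfection methods of the paper state a higher confluency and a later RNA extraction. Each condition had 1 library, so that no spread between cultures could be measured and no test between conditions was possible. Every interval given here is a 95% exact (Clopper-Pearson) interval of the split of a gene's reads between the libraries, turned into a log2 fold change of siLINP1 over siNC, and it covers counting error only.

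The siNC library held 18829544 counted reads and the siLINP1 library 15383081. LINP1, the targeted lncRNA, was covered by 167 reads in siNC against 23 in siLINP1, a log2 fold change of -2.65 (interval -3.35 to -2.02). The squamous identity of the cells was only partly seen. Of 10 genes typical of squamous keratinocytes, 5 stayed below 1 RPKM throughout, among them KRT5 (32 and 24 reads) and TP63 (6 and 8). Others of the 10 had more reads, among them PERP (1158 and 1398), SFN (264 and 138) and KRT14 (243 and 87). Of 6 mesenchymal genes examined, VIM had most reads, 61097 and 41992, and COL1A1 fewest, 190 and 79. The 6 blood cell genes examined all stayed below 1 RPKM, and CD3E, HBB and HBA1 had 0 reads. The 10 stomach genes examined summed to 500 reads in siNC and 37 in siLINP1, with 194 and 0 for PGC, 95 and 0 for PGA3 and 82 and 0 for LIPF, which encode secreted digestive enzymes of the stomach. TCN1 had 75 and 2 reads. Of the 10 genes, 6 stayed below 1 RPKM in both libraries, and MUC6 went the other way, with 17 and 23 reads. The siNC library therefore differed from siLINP1 also in reads of some stomach genes, whose source and part in the differences below were not tested.

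The study used 2 siRNAs against LINP1, and the sources used here do not say which was sequenced. Their target sites are shown because a siRNA can also act on other transcripts that hold the 7 bases paired with bases 2 to 8 of its guide strand, here in capitals. Both sites lie in LINP1 on the plus strand of GRCh37, at chr10:6780757-6780775 for siLINP1_01 and chr10:6780487-6780505 for siLINP1_02.
siLINP1_01: ccaactgcgggACTTCAGa
siLINP1_02: cactctccagcCTGCAAGa
Exons could be read from GENCODE for 163 of the 173 LINC-named lncRNAs, and 0 of them held a full target site of either siRNA. The 7 bases of siLINP1_01 were found in 59, whose median log2 fold change was 0.11, against 0.06 in the 104 without them. Those of siLINP1_02 were found in 53, with a median of 0.07 against 0.09 in the other 110. Medians do not show single genes, and whether a seed site bears on the level of a gene was not tested.

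The LINC-named lncRNAs were scarce transcripts. Together they took 24755 reads in siNC, 0.131% of the library (exact interval 0.130% to 0.133%), and 22912 in siLINP1, 0.149% (0.147% to 0.151%). After scaling by size factors (median of ratios) the sum was higher in siLINP1 by 0.10 on the log2 scale (0.07 to 0.12). The reads of a single gene ranged from 30 to 3224 over both libraries with a median of 117, and 80 of the 173 genes had fewer than 100. The 10 genes with most reads took 37.3% of these reads in siNC and 34.9% in siLINP1. Per length, 109 of the 173 reached 1 RPKM in both libraries. The median level in siNC was 1.61 RPKM, against 8.41 RPKM for the 13129 protein-coding genes that passed the same minimum and 2.03 RPKM for the 837 other genes typed lncRNA.

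Most of these genes kept a level in siLINP1 close to that in siNC. Their median log2 fold change was 0.07, with quartiles at -0.28 and 0.52, while the median of all 16274 genes with at least 30 reads was -0.03. A change of at most 1.5-fold was seen in 115 genes (66.5%), against 79.7% of all genes. The interval spanned 0 in 99 genes, lay above 0 in 48 and lay below 0 in 26. Over all genes with at least 30 reads it lay above 0 in 26.1% and below 0 in 29.7%, and among the LINC-named lncRNAs in 27.7% and 15.03%.

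More than 2-fold higher in siLINP1 were 19 of the 173 (10.98%), against a background of 4.02% of all genes with at least 30 reads. More than 2-fold lower were 5 (2.89%), against 2.56%. The whole interval lay beyond 2-fold in 8 genes on the higher side (4.62%), where the background was 1.55%, and in 1 gene on the lower side (0.578%), where it was 0.363%. Low read counts alone spread fold changes, and 17 of the 24 genes beyond 2-fold had fewer than 100 reads. The shares were therefore set beside all genes of the same read class. With 30 to 99 reads, 16.2% of the LINC-named lncRNAs and 9.97% of all genes were more than 2-fold higher. From 100 to below 300 reads the shares were 7.69% and 5.83%, and from 300 to below 1000 reads they were 6.45%, which is 2 of 31 genes, and 3.17%. In the same classes the shares more than 2-fold lower were 5.0% and 9.12%, 1.92% and 3.93%, and 0% and 0.884%. Those with the whole interval beyond 2-fold on the higher side were 6.25% and 2.18%, 1.92% and 2.19%, and 6.45% and 1.77%. At 1000 reads or more, 0 of 10 were beyond 2-fold in either direction, against 1.4% of all genes on the higher side and 0.269% on the lower. These shares are a description of 2 libraries, and no test stands behind the difference. The minimum on the sum also lets in genes that were read almost only in siLINP1, such as LINC01554 and LINC01647, which passed through that library alone.

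**Figure D1:**
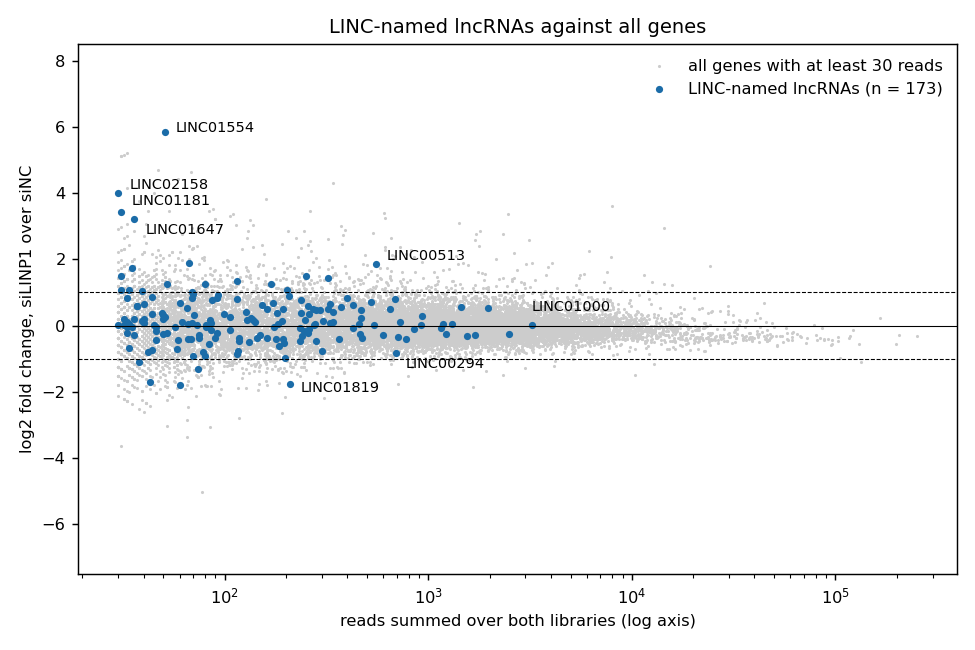
Log2 fold change of siLINP1 over siNC against the reads summed over both libraries (log axis), for the 173 LINC-named lncRNAs (blue) and all genes with at least 30 reads (grey, without 3 genes that had 0 reads in a library). Dashed lines mark 2-fold. The LINC-named genes lie mostly at low counts, and LINC01554, LINC02158, LINC01181 and LINC01647, at the upper left, have the highest fold changes among them on fewer than 100 reads each.

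On the higher side the other classes of non-coding genes, under the same minimum of 30 reads, lay between the protein-coding genes, at 3.24%, and the LINC-named lncRNAs. Nearest to the LINC-named lncRNAs were the 408 genes typed lincRNA, 8.58% of them more than 2-fold higher and 5.15% more than 2-fold lower. Their whole interval lay beyond 2-fold on the higher side in 2.45%, against 4.62% of the LINC-named lncRNAs. Of 837 other genes typed lncRNA, 7.65% were more than 2-fold higher and 4.18% more than 2-fold lower, with a median log2 fold change of 0.03. For 764 genes typed antisense the shares were 6.81% and 3.80%. Classes by type and by name can share genes. Among 349 non-coding genes named as antisense to another gene the shares were 7.74% and 5.16%, and among 276 named only by a genomic clone 7.97% and 3.62%. The 36 host genes of small nucleolar RNAs and miRNAs had a median of -0.17. On the lower side the LINC-named lncRNAs, at 2.89%, lay below these non-coding classes and above the protein-coding genes, at 2.11%. These differences were not tested. Median reads were 117 for the LINC-named lncRNAs, 68 for the lincRNA type, 122 for the other genes typed lncRNA and 91 for the antisense type. They were 127 for the named antisense genes, 86 for the clone-named, 463 for the host genes and 1084 for the protein-coding genes.

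The LINC-named lncRNAs with most reads changed little. LINC01000 (GRCh37 chromosome 7, 128281295 to 128301052) held 1720 reads in siNC against 1504 in siLINP1, with a log2 fold change of 0.02 (-0.08 to 0.12). LINC00674 (692 and 617 reads) and LINC00963 (619 and 559), a transcript described in prostate cancer, had log2 fold changes of 0.04 and 0.06 with intervals that spanned 0. The highest level per length was that of LINC00493, at 67.7 RPKM in siNC and 68.8 in siLINP1, with 628 and 522 reads and a log2 fold change of -0.06 (-0.23 to 0.11). The level of these 4 transcripts differed by less than counting error.

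Of the remaining 6 genes with at least 1000 reads, 4 were somewhat lower and 2 higher in siLINP1. LINC00673, which has been described to promote degradation of the phosphatase PTPN11, had 1449 and 1047 reads (-0.26, -0.38 to -0.14). LINC01029 had 991 and 709 reads (-0.27, interval -0.41 to -0.13). LINC01468, now named LNCAROD and described as an activator of the neighbouring WNT inhibitor gene DKK1, had 707 and 518 (-0.24, -0.41 to -0.07). DKK1 itself, 133220 bases away, was lower as well, with 1472 reads in siNC and 858 in siLINP1 (-0.57, -0.69 to -0.45). LINC00094 is the fourth gene on the lower side and is described below with the loci now typed protein-coding.

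On the higher side, LINC01578 went from 637 reads in siNC to 808 in siLINP1, a log2 fold change of 0.55 (0.40 to 0.70). It is now named CHASERR and is known to hold down the chromatin remodeller gene CHD2, which starts a short way downstream on the same strand. CHD2 had 3969 and 3134 reads (-0.13, -0.20 to -0.06), so that this pair lay on opposite sides of 0. LINC00707, the LINC-named lncRNA nearest to LINP1, starts 40659 bases past the end of LINP1 on the same strand of chromosome 10. Its 877 and 1089 reads gave a log2 fold change of 0.52 (0.39 to 0.65), opposite in direction to the targeted gene. Between LINC00707 and its nearest coding gene PRKCQ lie 198952 bases, and PRKCQ had 137 and 66 reads (-0.84, -1.29 to -0.41).

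The 10 largest differences on the higher side were ranked by whichever interval end lay closer to 0, and were led by genes with almost no reads in siNC. LINC01554 (chromosome 5, 95187936 to 95195837) went from 1 read in siNC to 50 in siLINP1. Its log2 fold change of 5.85 had an interval from 3.31 to 11.2, wide because of the single control read. ELL2, a transcription elongation factor gene 24965 bases away, had 1320 and 1454 reads (0.35, 0.24 to 0.46). LINC02158 had 2 and 28 reads (4.02, 2.03 to 7.13), and LINC01647 (chromosome 1, 11669588 to 11673412) had 4 and 32 (3.21, 1.71 to 5.17). LINC01181 had 3 and 28 reads (3.43, 1.74 to 5.79). LINC02158 is now named as an antisense RNA of CCDC13, whose own reads were 4 and 3, and BAALC, the coding gene next to LINC01181, also had 4 and 3. The reads on this pair of lncRNAs were thus not matched by reads on the coding gene beside them.

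LINC00513, LINC00346, LINC01060 and LINC00431 also had their whole interval beyond 2-fold, and the first 3 of these on well over 100 reads. LINC00513 (chromosome 7, 130598223 to 130606705, plus strand) has been described as a positive regulator of type I interferon signalling. Its reads were 133 in siNC and 420 in siLINP1, 7.46 and 28.8 RPKM, and it was 3.65-fold higher (interval 2.998 to 4.47). LINC00346, now named PRECSIT, was described in cSCC as a p53-regulated transcript that acts on STAT3, and lies on chromosome 13 (111516334 to 111522655, minus strand). Its reads were 73 and 179, a 2.84-fold difference (2.15 to 3.78). LINC01060 (chromosome 4, 189376732 to 189523062) had 96 and 225 reads and was 2.71-fold higher (2.12 to 3.48), and it had 10.6 RPKM in siNC and 30.3 in siLINP1.

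LINC00431 lies on the same stretch of chromosome 13 as LINC00346 and had 16 and 51 reads (log2 fold change 1.88, 1.05 to 2.79). ANKRD10, the nearest coding gene of both, had 1490 and 1165 reads (-0.15, -0.26 to -0.03), so that the 2 lncRNAs and the coding gene between them lay on opposite sides of 0. GENCODE annotates 159 of the 716 bases that the table gives LINC00431, so that the uniqueness of most of its sequence was not measured. The same limit holds for other genes named here, among them LINC01181 (556 of 2674 bases), LINC00999 (992 of 5253) and LINC00674 (160 of 11193). LINC01291 (55 and 113 reads, log2 fold change 1.25) and LINC00491 (36 and 79 reads, 1.34) complete the 10, with intervals from 0.77 to 1.74 and from 0.76 to 1.95. LINC01291 lies 15777 bases from HK2, a hexokinase gene, which had 1679 and 1492 reads (0.04, -0.06 to 0.14).

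**Figure D2:**
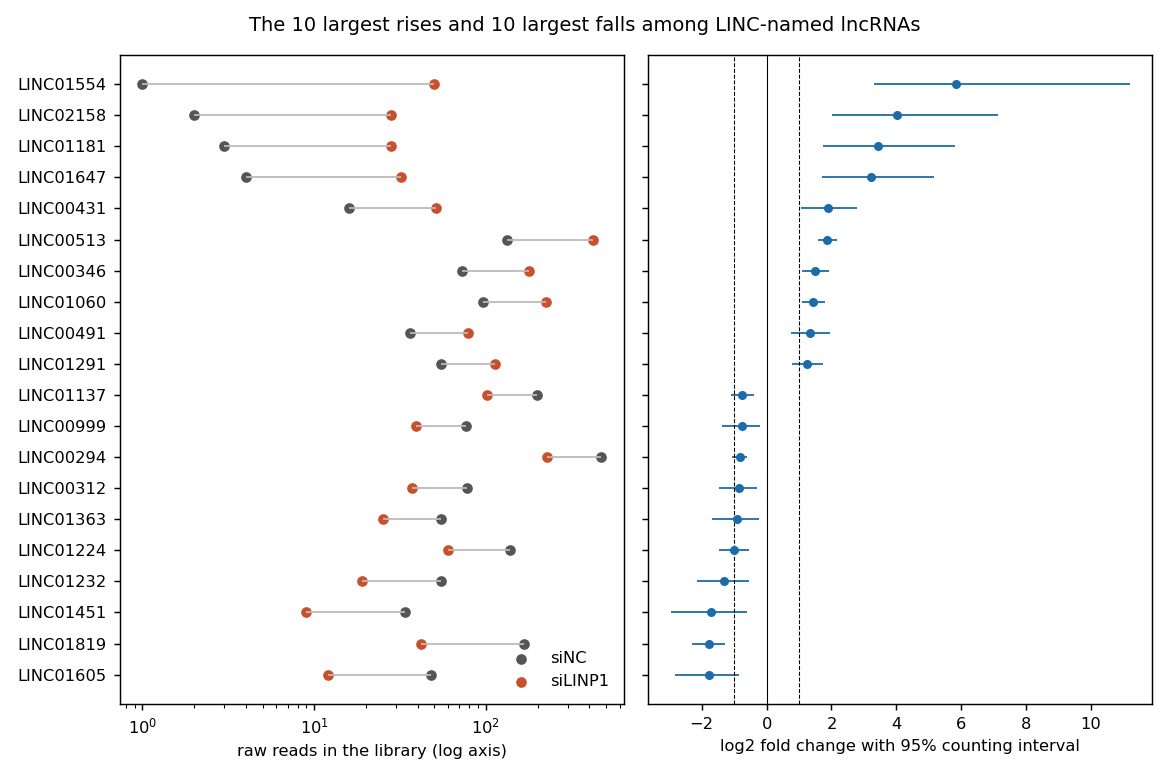
Left, raw reads in siNC (grey points) and siLINP1 (orange points) on a log axis; right, log2 fold change with its 95% counting interval, for the 10 largest differences in each direction by the interval end closer to 0, sorted by fold change. Dashed lines mark 2-fold. The 4 genes at the top have 1 to 4 reads in siNC and wide intervals, and LINC00513, with 133 and 420 reads, has the narrowest interval among the 10 on the higher side.

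The largest differences on the lower side were smaller. LINC01819 (chromosome 2, 43254992 to 43266682, minus strand) had 166 reads against 42 in siLINP1, a log2 fold change of -1.77 (-2.30 to -1.28), and was the only LINC-named lncRNA whose whole interval lay below a 2-fold decrease. LINC01605 had 48 and 12 reads (-1.79, -2.84 to -0.86), LINC01451 had 34 and 9 (-1.71, -2.95 to -0.62), and LINC01232 had 55 and 19 (-1.32, -2.16 to -0.55). Each of these was more than 2-fold lower on few reads, with an interval that reached inside 2-fold. EGFL7, the nearest coding gene of LINC01451 and an endothelial secreted factor, was lower too, with 342 and 181 reads (-0.71, -0.98 to -0.44).

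LINC00294 had most reads among the 10 largest differences on the lower side. It lies on chromosome 11 from 33097696 to 33101000 as a gene with 1 exon, and its 469 and 228 reads gave a log2 fold change of -0.83 (-1.07 to -0.60). LINC01224 (138 and 60 reads, -0.99) and LINC01137 (199 and 102 reads, -0.75) had intervals from -1.45 to -0.54 and from -1.11 to -0.40. LINC00312 (78 and 37 reads, -0.87), LINC01363 (55 and 25, -0.93) and LINC00999 (77 and 39, -0.77) were the last of the 10. As stated above, siNC also held reads of some stomach genes that siLINP1 lacked, and their part in the genes lower in siLINP1 was not tested.

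The gene table names many loci more than once, under a symbol and under an Ensembl identifier, and this bears on the counts. Of the 173 LINC-named lncRNAs, 98 overlapped another row, 59 of them a row named by an Ensembl identifier, and 57 overlapped a row on their own strand. Reads that fall in both rows can be split between them or discarded. Overlapping rows were looked up for the genes with the largest differences, those with most reads and those of the role lists. Where such a gene had an Ensembl row on its own strand with at least 30 reads, both lay on the same side of 0, apart from LINC01029 and LINC01234. Outside these genes, LINC00526 had -0.30, and the row over it, with 16 and 24 reads, had 0.79 (-0.18 to 1.8). The rows over other genes named here, among them LINC01569, LINC01128, LINC01134 and LINC01719, were not examined. The Ensembl row over LINC00513 had 58 and 129 reads (1.36, 0.90 to 1.84), and the one over LINC01819 had 121 and 53 (-0.98, -1.48 to -0.50). The row over LINC01224 had 172 and 84 reads (-0.82, -1.22 to -0.44), and the row over LINC01291 had 150 and 240 (0.89, 0.59 to 1.19). LINC01029 had -0.27 for the gene itself and 0.42 (0.19 to 0.66) for the Ensembl row over it, which had 274 and 318 reads. LINC01234 had 0.34, and the row over it, with 57 and 41 reads, had -0.27 (-0.88 to 0.34). Of the 75 LINC-named lncRNAs that overlapped no other row, 8 were more than 2-fold higher (10.7%, against 4.02% of all genes with at least 30 reads). More than 2-fold lower were 3 of the 75 (4%, against 2.56%), and the median of the 75 was 0.11.

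The promoters of the genes with the largest differences on over 100 reads are shown, as far as RefSeq (GRCh38.p14) holds them, from 250 bases before to 50 bases after the transcript start, 5′ to 3′ on the strand of the gene. Capitals mark matches on either strand. The letters searched were TGANTCA for AP-1, CACGTG for the E-box, CCAAT for the CAAT box and TATAAA for the TATA box, and for NF-kB the letters GGGA and CC with any 4 bases between them. Also searched were TGACGTCA for CRE and the ISRE core, which were not found in the sequences printed. Matches of different motifs were counted separately where they overlapped. LINC00513 lies at chr7:130913214-130913513, plus strand, LINC00346 at chr13:110870259-110870558, minus strand, and LINC01060 at chr4:188455328-188455627, plus strand.
LINC00513: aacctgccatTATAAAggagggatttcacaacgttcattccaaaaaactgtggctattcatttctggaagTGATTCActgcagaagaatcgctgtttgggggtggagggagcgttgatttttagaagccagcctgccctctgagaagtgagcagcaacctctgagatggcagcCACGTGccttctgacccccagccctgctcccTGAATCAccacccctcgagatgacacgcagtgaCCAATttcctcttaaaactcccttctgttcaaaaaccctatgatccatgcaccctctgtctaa
LINC00346: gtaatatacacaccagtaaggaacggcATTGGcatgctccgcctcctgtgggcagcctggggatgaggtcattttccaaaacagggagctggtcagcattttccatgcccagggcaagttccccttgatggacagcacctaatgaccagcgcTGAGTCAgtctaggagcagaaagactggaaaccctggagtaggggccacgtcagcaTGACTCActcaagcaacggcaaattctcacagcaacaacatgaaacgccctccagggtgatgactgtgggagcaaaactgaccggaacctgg
LINC01060: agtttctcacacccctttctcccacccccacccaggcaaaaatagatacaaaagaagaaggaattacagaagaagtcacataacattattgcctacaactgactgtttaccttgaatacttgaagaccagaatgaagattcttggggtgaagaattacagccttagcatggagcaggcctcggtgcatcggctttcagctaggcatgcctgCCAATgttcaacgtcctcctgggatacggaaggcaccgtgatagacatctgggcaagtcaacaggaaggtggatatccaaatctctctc
The promoters of LINC00513 and LINC00346 held the letters of AP-1 at 2 places each, and that of LINC01060 held only the CAAT box. AP-1 was also found at 2 places for LINC00460 (log2 fold change 0.71), LINC00704 (-0.08) and LINC01271 (-0.38), so that genes with such promoters lay on both sides of 0. Over the 110 LINC-named lncRNAs with a promoter in the table, 10 held AP-1 (9.09%), against 7.71% of all 35116 promoters. The median log2 fold change was 0.22 in these 10 and 0.03 in the other promoters. The CAAT box was found in 40.9% against 34.6% of all promoters, NF-kB in 25.5% against 25.6%, the TATA box in 14.5% against 11.5% and the E-box in 6.36% against 7.26%. A match describes the letters of this window only.

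A list of 31 LINC numbers with roles described in the literature, mostly in cancers, was examined gene by gene. The table held 25 of them under these symbols, and 22 passed the minimum of 30 reads. LINC01133 (4 and 0 reads), LINC00958 (7 and 2) and LINC00261 (0 and 0) did not. Of the 22, the interval lay above 0 in 10 (45.5%, against 26.1% of all genes with at least 30 reads) and below 0 in 6 (27.3%, against 29.7%). More than 2-fold higher were 4 (18.2%, against 4.02%) and more than 2-fold lower was 1 (4.55%, against 2.56%). The median was 0.32. Median reads were 364.5 in the 22 and 748.5 in all genes, so the shares are not matched for reads. The list was chosen with earlier results of these data known, and the counts describe its members only.

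LINC00513, LINC00346, LINC01060, LINC00707, LINC01578 and LINC00673 of this list were described above. LINC00520, which has been described in cSCC, had 26 reads against 54 in siLINP1 (1.26, 0.56 to 1.998). LINC00941, which has been described to restrain keratinocyte differentiation, had 158 and 242 reads (0.82, 0.53 to 1.12). LINC00460, described in head and neck squamous carcinoma, had 215 and 305 (0.71, 0.46 to 0.97), or 12.5 and 21.7 RPKM.

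Further transcripts of the list on the higher side were LINC00662 (140 and 189 reads, log2 fold change 0.64, 0.32 to 0.97) and LINC00667 (452 and 479 reads, 0.29, 0.10 to 0.48). On the lower side, LINC01116 had 118 and 67 reads (-0.61, -1.06 to -0.16), and LINC00472, described as a tumour suppressor in breast cancer, had 283 and 189 (-0.37, -0.65 to -0.10). LINC00511, described as a scaffold of the histone methyltransferase EZH2, had 143 and 90 reads (-0.46, -0.86 to -0.07). LINC01234 (124 and 136 reads), LINC00339 (378 and 350), LINC00665 (241 and 215), LINC00467 (86 and 58) and LINC00324 (16 and 21) had intervals that spanned 0. Of the listed genes that the table holds under a later symbol, CYTOR, formerly LINC00152, had 598 and 862 reads (0.74, 0.58 to 0.89). NORAD, formerly LINC00657 and a binder of PUMILIO proteins, had 7677 and 7785 (0.23, 0.18 to 0.28), more than any gene that still carries a LINC number here.

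**Figure D3:**
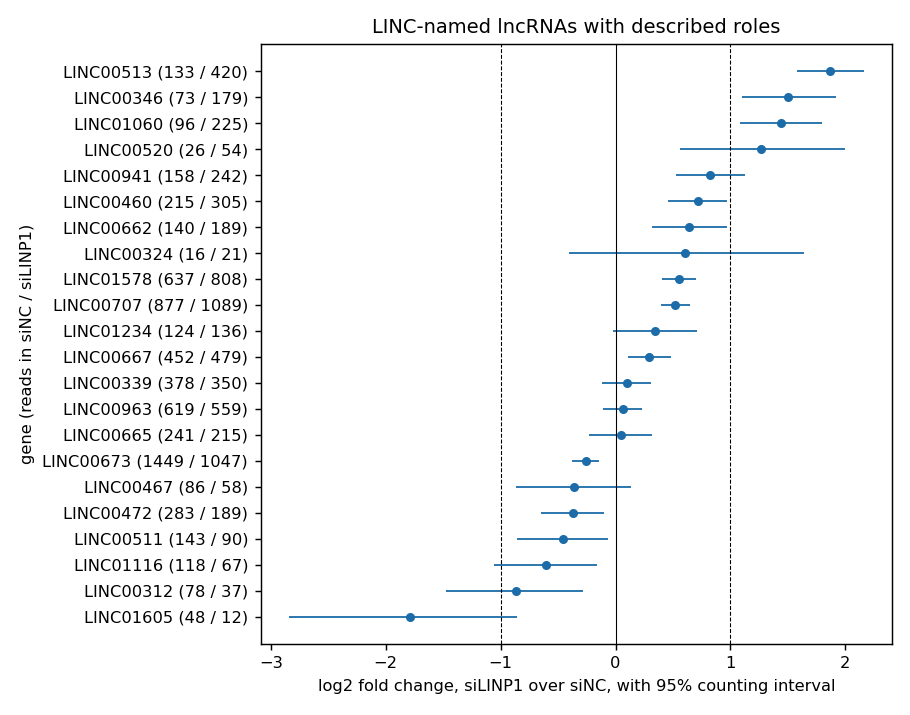
Log2 fold change of siLINP1 over siNC with its 95% counting interval for the 22 LINC-named lncRNAs of the list with described roles, with the reads in siNC and siLINP1 beside each symbol. Dashed lines mark 2-fold. LINC00513, LINC00346 and LINC01060 lie wholly beyond 2-fold on the higher side, and LINC01605, at the bottom, is the lowest with 48 and 12 reads.

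Some LINC numbers mark transcripts that are now known to be translated. By RefSeq or GENCODE, 7 of the 173 loci are typed as protein-coding today, which is an annotation and not a measure of translation. The sources differ for LINC00999, protein-coding in GENCODE only, and for LINC00854, protein-coding in RefSeq only. LINC00950 is counted because it is matched to TMEM8B, a gene with up to 14 exons. LINC00493 is SMIM26, a mitochondrial microprotein gene, and its values are given above. LINC00998 is SMIM30, which encodes a small membrane protein, and had 470 reads against 309 in siLINP1 (-0.40, -0.61 to -0.19). LINC00094 is BRD3OS, which overlaps the bromodomain gene BRD3 on the opposite strand, and gave 910 and 635 reads (-0.31, -0.46 to -0.16). BRD3 had 1164 and 968 (-0.06, -0.18 to 0.07). The interval lay below 0 in 3 of the 7, LINC00094, LINC00998 and LINC00999 (42.9%, against 29.7% of all genes and 33.2% of protein-coding genes). The other 4 loci, LINC00493, LINC00854, LINC00950 and LINC00959, had intervals that spanned 0. NBDY, formerly LINC01420 and the gene of a microprotein of the mRNA decapping complex, is typed protein-coding in the table and had 427 and 349 reads (-0.08, -0.29 to 0.13).

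Since several lncRNAs act on the gene beside them, each LINC-named lncRNA was set beside its nearest coding gene. A coding gene lay within 100 kb of 129 of the 173, and in 105 of these it had at least 30 reads itself. In 60 of the 105 pairs (57.1%) both genes lay on the same side of 0. Both intervals were clear of 0 in 32 pairs, on the same side in 17 and on opposite sides in 15. Across the 105 pairs Pearson's r of the log2 fold changes was -0.01 and Spearman's rho 0.06. The points come from the same pair of libraries, and some share a coding gene, 101 being distinct. Within 10 kb, 29 of 51 pairs (56.9%) lay on the same side.

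Among pairs on the same side, LINC00189 (96 and 141 reads, 0.76) lay 10590 bases from BACH1, a repressor of antioxidant genes, which had 941 and 1407 reads (0.79, 0.67 to 0.91). LINC01003 (112 and 145 reads, 0.58) lay head to head with the histone methyltransferase gene KMT2C at 28119 bases, and KMT2C had 1941 and 2913 reads (0.80, 0.71 to 0.88). LINC01619, with 9 and 26 reads (1.74, 0.60 to 3.02), overlaps the antiproliferative gene BTG1 on the same strand, so that their reads may not be told apart, and BTG1 had 2662 and 3354 (0.54, 0.47 to 0.62). On the lower side, LINC00668 (52 and 26 reads, -0.79) ended 9758 bases from ARHGAP28, which had 72 and 27 reads (-1.21, -1.90 to -0.55).

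Of the 15 pairs with intervals on opposite sides, the lncRNA was the higher of the pair in 10 and the coding gene in 5. Among the 10, LINC00857 (128 and 154 reads, 0.48, 0.13 to 0.83) lay 2033 bases from the annexin gene ANXA11, which had 3315 reads in siNC and 2293 in siLINP1 (-0.32, -0.40 to -0.25). LINC00641 (111 and 125 reads, 0.38, 0.00040 to 0.76) lay 2236 bases from HNRNPC, a gene of an RNA-binding protein of the nucleus, at 10485 and 7869 reads (-0.20, -0.25 to -0.16). LINC01647 (4 and 32 reads) lay 35006 bases from FBXO2, at 188 and 87 reads (-0.90, -1.29 to -0.53).

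Among the 5 pairs in which the coding gene was higher, LINC01224 (138 and 60 reads, -0.99) lay 3673 bases from ZNF91, a zinc finger gene that represses retrotransposons, which had 444 and 851 reads (1.15, 0.98 to 1.32). LINC01569 (122 and 73 reads, -0.53, -0.97 to -0.10) lay 3397 bases from TFAP4, a transcription factor gene, at 416 and 576 reads (0.68, 0.49 to 0.86). LINC00923, the last of the 5 genes more than 2-fold lower, had 27 and 11 reads (-1.09, -2.25 to -0.03) and lay 86274 bases from ARRDC4, at 877 and 1200 (0.66, 0.54 to 0.79). LINC01363 with POU2F1, and LINC01137 with ZC3H12A, are the others.

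In 9 pairs the lncRNA and the coding gene were transcribed head to head from starts within 1 kb. LINC01137 (chromosome 1, 37920480 to 37940044) starts 75 bases from ZC3H12A, which encodes an RNase that degrades cytokine mRNAs, and LINC01137 itself, now named LITATS1, has been described in TGF-beta signalling. The reads of LINC01137 were 199 in siNC and 102 in siLINP1 (-0.75, -1.11 to -0.40), and ZC3H12A had 356 and 655 (1.09, 0.90 to 1.28), so that the sides of this shared start region lay in opposite directions with intervals that did not overlap. Of the other 8 pairs, LINC01521 and PATZ1 also had both intervals clear of 0 on opposite sides, with 133 and 160 reads (0.48, 0.14 to 0.82) for the lncRNA and 857 and 590 (-0.33, -0.48 to -0.18) for the coding gene. LINC01134 (25 and 26 reads, 0.27) starts 111 bases from C1orf174, at 478 and 258 reads (-0.68, -0.90 to -0.46), and the interval of the lncRNA spanned 0. In 6 of the 9 pairs both genes lay on the same side of 0.

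The start region between LINC01137 and ZC3H12A is shown because both directions are measured from it, at chr1:37474394-37474693, minus strand of GRCh38.p14 (RefSeq), from 250 bases before to 50 after the LINC01137 start. The promoter of LINC00667 is shown beside it as a start region between LINC-named genes, at chr18:5237850-5238149, plus strand. Capitals mark the TATA box, the NF-kB motif and the CAAT box on either strand.
LINC01137: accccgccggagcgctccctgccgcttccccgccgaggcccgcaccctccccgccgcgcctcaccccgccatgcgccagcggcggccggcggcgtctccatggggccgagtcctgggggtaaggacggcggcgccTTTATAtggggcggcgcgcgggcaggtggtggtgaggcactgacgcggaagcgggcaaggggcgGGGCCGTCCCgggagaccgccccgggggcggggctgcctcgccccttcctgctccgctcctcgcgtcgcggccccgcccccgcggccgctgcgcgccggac
LINC00667: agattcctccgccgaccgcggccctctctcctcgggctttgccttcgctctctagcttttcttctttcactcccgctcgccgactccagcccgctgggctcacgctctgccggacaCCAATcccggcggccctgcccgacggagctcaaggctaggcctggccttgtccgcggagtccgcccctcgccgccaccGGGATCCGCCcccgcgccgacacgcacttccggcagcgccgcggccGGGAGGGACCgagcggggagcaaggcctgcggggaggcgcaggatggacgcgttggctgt
The window of LINC01137 has a GC content of 80.7% with 47 CpG, and that of LINC00667 has 72.0% with 38 CpG. The median over the 110 promoters of LINC-named lncRNAs was 60.5% GC, and 58.7% over all promoters of that table.

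Some LINC-named lncRNAs lie beside each other. Within 10 kb or overlapping there were 8 pairs, 4 of them head to head. In 3 of the 8 both partners lay on the same side of 0. In all 8 the intervals of the partners overlapped, but many of these intervals were wide because of few reads. LINC00526 (44 and 31 reads, -0.30, -1.01 to 0.40) and LINC00667 (452 and 479 reads, 0.29, 0.10 to 0.48) are transcribed away from each other with 71 bases between them. LINC01116 (118 and 67 reads, -0.61) and LINC01117 (21 and 15 reads, -0.28, -1.34 to 0.75) have 180 bases between them, and LINC00115 (29 and 15 reads, -0.74, -1.75 to 0.20) and LINC01128 (288 and 250 reads, 0.01, -0.24 to 0.25) have 69. LINC00673 and LINC00511, 5235 bases apart on the same strand of chromosome 17, were both lower with intervals below 0. LINC00704, now MANCR (234 and 191 reads, -0.08), and LINC00705 (20 and 19 reads, 0.14) overlap on opposite strands, and both intervals spanned 0.

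By structure, GENCODE gave 139 of the 163 matched genes at least 2 exons in a transcript, with a median of 4 for the transcript with most exons, and 24 genes had 1 exon. LINC00294 (-0.83) and LINC00938, with 271 and 412 reads (0.81, 0.59 to 1.04), are both of this kind and lay on opposite sides of 0. The GC content of the exons ranged from 32.3% to 63.3% with a median of 46.4%. Across the 163 genes the log2 fold change was not related to it, with Pearson's r of -0.01 and Spearman's rho of -0.02. Spearman's rho was -0.06 with the length of the table and -0.08 with the summed reads across all 173 genes. These points share their libraries and are not independent replicates. In 23 genes at least 10% of the tiles of 100 bases, taken over the GENCODE exons, had no unique place in GRCh37. Of these 23, LINC00431, LINC01719 and LINC01189 were more than 2-fold higher in siLINP1 (13.0%, against 4.02% of all genes with at least 30 reads).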

How the data were processed

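The authors extracted total RNA from HSC-1 cells, with 1 library per condition, and sequenced it on an Illumina HiSeq. Reads were mapped by the authors with Tophat2 (GRCh37/hg19), and HTSeq gave the number per gene. The submitters' processing notes also name HISAT2, HISAT and Bowtie2. Versions, gene annotation, counting mode and strand setting are not given in the sources used here, and without a strand setting reads of overlapping antisense genes cannot be told apart. The deposited values are raw read counts per gene, and RPKM values that the authors deposited beside them equal the count divided by the table's gene length and the library total. The table's 12 other columns of per-sample values were not used.

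Size factors were medians of ratios, and log2 fold changes were taken without a pseudocount. No p-value was computed, since each condition had 1 library. A call was a change of more than 2-fold, or an exact 95% interval (Clopper-Pearson) of the split of reads wholly beyond 2-fold. Intervals cover counting error only, as reads without molecular identifiers are not independent molecules. The members and all lists were chosen with earlier results of these data known. Named were genes with at least 1000 reads, the 10 largest differences in each direction by the nearer interval end, the genes at the edge of the minimum of 30 reads, the role lists and their nearest coding genes; genes named for a neighbour, a shared start or 1 exon were chosen after their values were seen. Exons came from GENCODE v44 lifted to GRCh37, promoters and current names from RefSeq (GRCh38.p14). Tiles of 100 bases at steps of 50 were placed with minimap2 2.31. Calculations were tested on simulated data. TMM factors came from edgeR 4.0.16 in R 4.3.3, and all else from scipy 1.17.1, pandas 2.3.3, numpy 2.4.6 and matplotlib 3.10.9 under Python 3.11.15. The alternatives are listed with their effect in the closing section.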

Additional observations from a re-analysis of the deposited data

How the results depend on the processing

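The counts of genes depended mainly on the minimum of reads and on which rows were kept. They also moved with the pseudocount and the scaling. In place of 19 genes more than 2-fold higher there were 17 with a pseudocount of 1, 15 with 5 and 21 with total-count scaling. In place of 5 lower there were 4 with a pseudocount of 5. The shares of all genes under these choices were not computed. With at least 10 reads, 36 genes were more than 2-fold higher and 24 more than 2-fold lower in siLINP1, in place of 19 and 5, and with at least 100 reads these were 6 and 1. The share of all genes was not computed for a minimum of 10 reads, so those counts have no background beside them. For at least 100 reads, the shares of all genes are given above by read class and were not pooled. The whole interval lay beyond 2-fold on the lower side in 2 genes with at least 10 reads in place of 1, and on the higher side in 3 with at least 100 reads in place of 8. Among the 75 genes that overlap no other row, 8 were more than 2-fold higher (10.7%, against 4.02% of all genes with at least 30 reads). In the 75, 3 were more than 2-fold lower (4%, against 2.56%). The whole interval lay beyond 2-fold in 4 on the higher side (5.33%, against 1.55%) and in 0 on the lower side, against 0.363%. Scaling by total count moved the log2 fold change of the summed reads from 0.10 to 0.18. This scaling added 0.08 to every log2 fold change and TMM factors 0.02, and the median of the LINC-named lncRNAs stayed between 0.06 and 0.15 under all alternatives tried. LINP1 stayed between -2.65 and -2.43. A pseudocount of 5 lowered LINC01554 from 5.85 to 3.31, and no other of 44 named genes left its counting interval under another scaling or pseudocount. The sign changed for 1 of them, LINC00493, which stood at -0.06 and at 0.02 under total-count scaling. Leaving out repeated or unmatched genes (16 higher and 5 lower beyond 2-fold), or loci now typed protein-coding (19 and 5), was tried after seeing the data. Depth limits most genes: with 30 reads in all, LINC01001 had an interval from -1.13 to 1.15, and LINC02158 a wider one, from 2.03 to 7.13. No paired analysis was possible because each condition had 1 library.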

Other observations

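LINC-named rows outside the genes described above also held reads. LINC00452, on chromosome 13 from 114598076 to 114624290 and typed as protein-coding in the table, had 11 reads in siNC and 99 in siLINP1, a log2 fold change of 3.38 with a counting interval from 2.48 to 4.43. LINC00176, also typed as protein-coding, had 71 and 41 reads (-0.58, -1.17 to -0.01). LINC00961, known to encode the microprotein SPAR, had 20 and 9 reads. Of the 95 LINC-named lncRNA rows with 10 to 29 reads, 17 (17.9%) were more than 2-fold higher and 19 (20%) more than 2-fold lower. The share of all genes in this range of reads was not computed, and low counts alone spread fold changes. The interval lay wholly beyond 2-fold in 3 rows. These were LINC01770 with 20 reads in siNC and 2 in siLINP1, LINC01864 with 1 and 12, and LINC01510, on chromosome 7 from 116203648 to 116254874, with 0 and 10. No explanation was examined for any of these values.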
